A study of Mus musculus with 6 samples.

Results

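The TNF ligand and receptor superfamilies were taken as the 52 genes, of 56884 gene IDs in the deposited tables, that are named Tnfsf, Tnfrsf or Traf with a number, together with Tnf, Lta, Ltb, Ltbr, Fas, Fasl, Cd27, Cd40, Cd40lg, Cd70, Ngfr, Eda2r and Edar. They comprised 17 ligands, 27 receptors including 4 decoy or orphan receptors, 7 TRAF adaptors and the antisense transcript Tnfsf13os. The naming rule uses no measured value. A gene was considered expressed when its abundance was at least 0.5 TPM, a share of the transcripts per length and scaled to a fixed library total, in at least 3 of the 6 libraries, and 26 of the 52 members were. The other 26 members are given below by their range.

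RNA was sequenced from an immortalized stromal vascular fraction (SVF) cell line of mouse subcutaneous white adipose tissue (scWAT) that overexpressed an HA-tagged mouse PPARγ2 mutant from a retroviral vector. PPARγ2 is the adipocyte form of the nuclear receptor that drives fat cell formation. In PPARγ2 K382Q the lysine at position 382 is replaced by glutamine, which resembles an acetylated lysine, and in PPARγ2 K382R it is replaced by arginine, which cannot be acetylated. Both groups had 3 libraries, labelled as biological replicates, and were collected 2 days after the start of beige adipocyte differentiation in medium with 0.5 μM rosiglitazone, 1 nM T3, 2 μg/mL dexamethasone, 500 μM isobutylmethylxanthine, 125 μM indomethacin and 5 μg/mL insulin. Thus all libraries carried a PPARγ2 transgene and came from cells exposed to a PPARγ agonist and a glucocorticoid, and neither uninfected cells nor cells with wild-type PPARγ2 were among the samples. The replicates were cultures of a cell line, so the p-values measure the spread between these cultures.

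TNF superfamily ligands are trimeric proteins of the cell surface, many of which are also shed, and they act by clustering their receptors. The receptors have no enzyme activity of their own. Many receptors with a death domain in the cytoplasmic tail recruit TRADD or FADD and can lead to NF-κB activation or to caspase-8 and cell death. Most receptors without a death domain bind TRAF proteins, several of which are ubiquitin ligases, and signal to NF-κB and MAP kinases. In adipose tissue TNF is known for blocking adipogenesis, lowering PPARγ and promoting lipolysis and insulin resistance.

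The sum of the receptors was lower in PPARγ2 K382Q- than in PPARγ2 K382R-overexpressing cells. Of the 26 expressed members, 15 were lower in PPARγ2 K382Q-overexpressing cells by limma with Benjamini-Hochberg adjustment over all 15426 genes tested, 1 was higher and 10 were not called. Of these 15, Tnfsf13os and Tnfrsf26 reached 0.5 TPM only in the PPARγ2 K382R libraries, so their direction followed from the filter. Over all genes tested, 48.1% were called, and 36.9% were called lower and 11.1% higher. The median log2 fold change, K382Q against K382R, was -0.34 over the expressed members and -0.14 over all genes tested, on the log2(TPM + 0.5) scale that is used throughout. When the libraries were scaled by median ratios, which moved the median of all genes to 0.0039, 14 members were lower and 2 higher, beside 20.4% and 19.9% of all genes. A fold change above 2 was reached by 2 members, Tnfrsf21 and Eda2r, both lower and neither higher. Among all genes 3.88% passed both thresholds, 2.61% lower and 1.27% higher. With median-ratio scaling 1 member, Tnfrsf21, passed both, beside 1.93% of all genes lower and 1.86% higher. The TPM ranges of the mutants did not overlap for 18 members, of which 17 were lower, and the corresponding shares of all genes were 57% and 42.8%. Tnfsf13os and Tnfrsf26 were again among these 17 members. In bulk RNA, fewer cells of a type and less RNA per cell cannot be told apart.

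**Figure D1:**
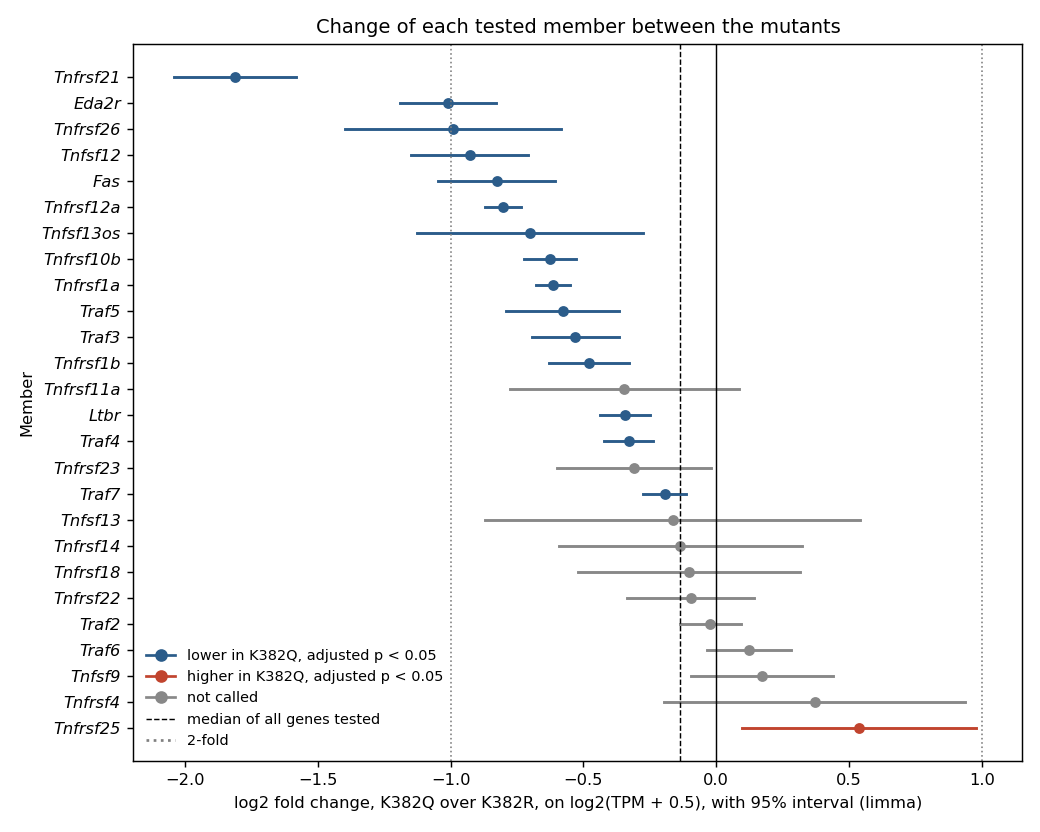
Log2 fold change (K382Q against K382R, on the log2(TPM + 0.5) scale) of each expressed member, ordered by size and coloured by call, with bars for the 95% confidence interval of limma and 3 libraries per mutant. The dashed line is the median of all genes tested and dotted lines mark a fold of 2. Of the 26 members, 15 were called lower and 1 higher, and Tnfrsf21 lay farthest from 0 at -1.81.

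Aligned sequence, estimated from the most frequent ratio of coverage to FPKM, was 5.95 to 7.50 Gb per library for PPARγ2 K382Q and 6.53 to 8.15 Gb for PPARγ2 K382R. Only 19.9% to 20.4% of the genes above 0.5 FPKM lay within 0.5% of that ratio, so these depths are approximate. The first principal component separated the mutants and held 61.3% of the variance. Pparg itself, with the transgene and the endogenous gene not told apart, had 1104 to 1333 TPM in PPARγ2 K382Q- and 1590 to 1632 TPM in PPARγ2 K382R-overexpressing cells. Its mean depth was only 66.4 to 83.0 and 97.1 to 122 reads per base. Tnfrsf1a, at 136 to 213 TPM, had 275 to 560, so TPM and depth did not rank these genes alike. The adipocyte markers Fabp4, Plin1, Lpl and Cidec were abundant in every library, and of 6 such markers, Pparg included, 3 were lower and 2 higher, beside 36.9% and 11.1% of all genes. With median-ratio scaling 2 were lower and 3 higher, and with quantile normalization 3 were lower and 0 higher. The largest difference among them was that of Adipoq, the gene of the hormone adiponectin, with 149, 147 and 148 TPM against 383, 346 and 351 TPM (limma, log2 fold change -1.28, adjusted p = 7.63e-07). Fabp4, the fatty acid binding protein of adipocytes, and Cidec, a lipid droplet protein, were higher at 0.34 and 0.27 (limma, adjusted p = 0.00093 and 0.00108). The summed level of the 6 markers was 52109 to 55786 TPM in PPARγ2 K382Q- and 43508 to 44736 TPM in PPARγ2 K382R-overexpressing cells. Leukocyte markers were at or near 0, with Cd3e and Adgre1 listed at 0 in all libraries and only Cd68 above 0.5 TPM, at 3.17 to 5.11 TPM. Of the endothelial markers only Pecam1 was expressed, at 1.497 to 2.08 TPM, and was not called. Of the markers of Schwann cells and neurons Sox10 was listed at 0 throughout and only Tubb3 was tested, which was lower (0 to 0.196 against 0.658 to 0.862 TPM, limma, adjusted p = 0.00367), and their summed level was 0.679 to 0.773 TPM against 0.922 to 1.17 TPM. Tubb3 passed the filter only through the PPARγ2 K382R libraries. Markers of adipocyte precursors and fibroblasts moved in the same direction as the members: all 5 that were tested (Col1a1, Pdgfra, Pdgfrb, Ly6a and Col3a1) of the 6 listed were lower, and their summed level was 569 to 613 TPM in PPARγ2 K382Q- and 935 to 974 TPM in PPARγ2 K382R-overexpressing cells. With median-ratio scaling all 5 were lower, and with quantile normalization 4 were. Dlk1, the marker that was not tested, stayed at or under 0.39 TPM. The part of the cell types behind these markers in the differences below was not tested.

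The regions just upstream of the members with the most marked differences and of the Tnfsf12 and Tnfrsf12a partners are shown first, since these genes carry the comparisons that follow. Each sequence is the 250 bases before the start of the canonical transcript (GENCODE vM39) in GRCm39, written 5′ to 3′ on the strand of the gene. They lie at chr17:43327163-43327412 (plus strand) for Tnfrsf21, chrX:96420840-96421089 (minus strand) for Eda2r, chr11:69586929-69587178 (minus strand) for Tnfsf12 and chr17:23896464-23896713 (minus strand) for Tnfrsf12a. Capitals mark matches on either strand to TATAAA (the TATA box), to CCAAT (the CAAT box) or to GGGCGG (the GC box), motifs that were chosen after the sequences had been seen.
Tnfrsf21: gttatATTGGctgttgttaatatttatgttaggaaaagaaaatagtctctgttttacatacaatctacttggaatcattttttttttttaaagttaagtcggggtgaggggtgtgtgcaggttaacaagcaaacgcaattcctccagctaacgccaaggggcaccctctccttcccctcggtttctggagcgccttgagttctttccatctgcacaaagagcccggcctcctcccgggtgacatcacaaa
Eda2r: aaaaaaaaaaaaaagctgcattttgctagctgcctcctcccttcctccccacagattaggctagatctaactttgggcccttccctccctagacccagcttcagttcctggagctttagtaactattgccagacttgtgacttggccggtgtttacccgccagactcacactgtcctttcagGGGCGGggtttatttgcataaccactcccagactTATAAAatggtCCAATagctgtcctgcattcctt
Tnfsf12: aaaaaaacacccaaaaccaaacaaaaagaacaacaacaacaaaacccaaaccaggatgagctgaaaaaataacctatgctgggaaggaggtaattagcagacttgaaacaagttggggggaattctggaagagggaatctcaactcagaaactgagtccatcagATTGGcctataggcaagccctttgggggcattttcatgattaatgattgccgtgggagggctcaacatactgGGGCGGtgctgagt
Tnfrsf12a: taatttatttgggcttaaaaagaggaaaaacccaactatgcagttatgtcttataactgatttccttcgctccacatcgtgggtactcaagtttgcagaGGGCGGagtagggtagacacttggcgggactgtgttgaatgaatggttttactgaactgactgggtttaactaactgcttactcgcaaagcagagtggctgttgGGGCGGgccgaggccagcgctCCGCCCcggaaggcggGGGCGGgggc

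The Eda2r sequence held TATAAA with its first base 34 bases before the start, preceded by GGGCGG and followed by CCAAT. The Tnfrsf12a sequence held 4 GGGCGG matches on either strand and neither of the other motifs, the Tnfsf12 sequence held a CCAAT and a GGGCGG match, and the Tnfrsf21 sequence held a CCAAT match only. Across the 25 expressed members other than Tnfsf13os, TATAAA was found upstream of 6, CCAAT of 7 and GGGCGG of 14, beside 11.9%, 36.5% and 36.3% of 21757 protein-coding genes. The κB motif of NF-κB was found upstream of 0 of these 25 members and 4.23% of all genes. AGGTCA, the core of the elements bound by PPARγ and related nuclear receptors, was found upstream of 1, Tnfrsf14, and of 13.1% of all genes. All motifs were searched on both strands, and a match or its absence describes only the letters of these windows.

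Ligands were sparse. Of 17 ligand genes, 3 were expressed: Tnfsf12 (TWEAK), Tnfsf9 (4-1BB ligand) and Tnfsf13 (APRIL). The summed TPM of the ligands was 11.4, 11.2 and 11.2 in the PPARγ2 K382Q libraries and 15.4, 18.3 and 17.1 in the PPARγ2 K382R libraries, against a sum over the receptors of 510, 520 and 507 TPM and of 794, 807 and 809 TPM. Each library therefore had far more receptor than ligand transcript, and both sums were lower in every PPARγ2 K382Q library.

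Tnfsf12 encodes the ligand of FN14, the receptor encoded by Tnfrsf12a. Its abundance was 5.42, 6.54 and 5.87 TPM in PPARγ2 K382Q- and 10.7, 12.7 and 11.9 TPM in PPARγ2 K382R-overexpressing cells. The ranges were well apart, and the log2 fold change was -0.93 ± 0.0944 (SE, n = 3 per mutant, limma, adjusted p = 0.000143). Tnfsf12 (chr11:69577076-69586675, minus strand) shares 52.4% of its exon bases in GENCODE vM39 with Tnfsfm13, a same-strand readthrough transcript into Tnfsf13 that was itself lower, with a log2 fold change of -0.87. Reads within the shared exons could be assigned to either gene.

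Tnfsf9, which costimulates T cells through Tnfrsf9, had 4.16, 3.42 and 4.22 TPM in PPARγ2 K382Q- and 3.19, 3.43 and 3.65 TPM in PPARγ2 K382R-overexpressing cells. The ranges overlapped and the log2 fold change of 0.17 was not called (limma, adjusted p = 0.258). It shares 14.4% of its exon bases with Gm11110 on the opposite strand, which had a mean of 3.293 TPM. Tnfsf13, a ligand for B-cell receptors of the family, lay at 0.22 to 0.83 TPM and at 0.325 to 0.933 TPM, and its log2 fold change was -0.16 (limma, adjusted p = 0.692). It shares 65.7% of its exon bases with Tnfsfm13, and leaving out the third library of either mutant turned its sign. The antisense transcript Tnfsf13os was lower at -0.70 (limma, adjusted p = 0.0148), with 0.456 to 0.492 TPM against 0.827 to 1.28 TPM, but its call was lost without the second or the third PPARγ2 K382R library (adjusted p up to 0.0557). It passed the filter only through the PPARγ2 K382R libraries. Tnfsf13os shares 12.8% of its exon bases with Tnfsfm13, 12.6% with Tnfsf13 and 4.3% with the abundant Senp3, all on the opposite strand. No source states that the strand was kept in counting, so reads of these bases may not have been told apart.

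Tnf itself was below the threshold of expression. It was listed at 0.0622, 0.117 and 0.281 TPM in PPARγ2 K382Q- and 0.246, 0.441 and 0.057 TPM in PPARγ2 K382R-overexpressing cells. The libraries overlapped, and the gene did not enter the test of expressed genes. Lta, the lymphotoxin that binds the same receptors, was at 0, 0.0594 and 0 TPM against 0, 0.133 and 0 TPM. Ltb, its membrane-bound partner in the ligand of Ltbr, had 0.616, 0.446 and 0.227 TPM against 0.34, 0.0713 and 0.06 TPM. Both overlapped between the mutants. Tnfsf10 (TRAIL) was at 0, 0.0584 and 0 TPM against 0.0842, 0.165 and 0.0442 TPM, also with overlap. The highest value of any library was 0.251 TPM for Tnfsf11 (RANKL), 0.0958 TPM for Tnfsf18 and 0.025 TPM for Tnfsf15. Tnfsf13b (BAFF) had 0.19 to 0.324 TPM in PPARγ2 K382Q- and 0.421 to 0.489 TPM in PPARγ2 K382R-overexpressing cells, without overlap. Fasl, Tnfsf14 (LIGHT), Cd70, Tnfsf4, Tnfsf8 and Cd40lg, most of which are known from activated lymphocytes, were listed at 0 in all 6 libraries.

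**Figure D2:**
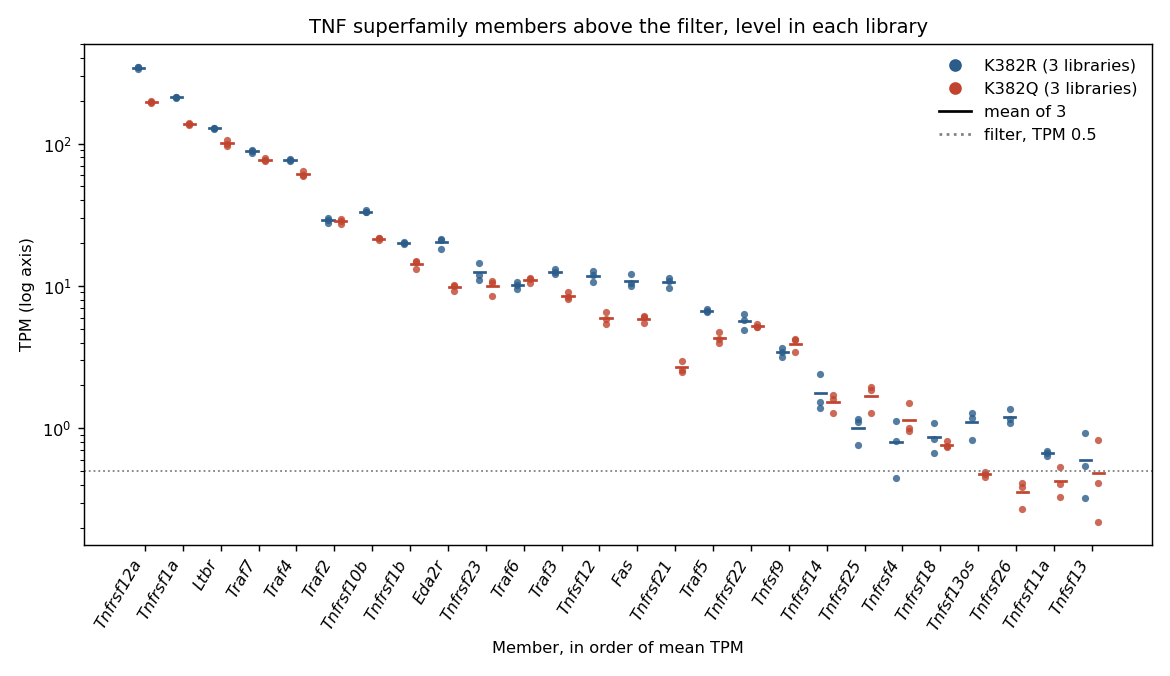
TPM of the expressed members in each library on a log axis, ordered by mean TPM, with a point for each of the 3 libraries of a mutant and a short line at their mean. Tnfrsf12a, Tnfrsf1a and Ltbr stand near or above 100 TPM, whereas Tnfsf12, the most abundant ligand, lies between 5.42 and 12.7 TPM.

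Receptors were dominated by Tnfrsf12a, Tnfrsf1a and Ltbr, which together made up 84.6% to 85.5% of the summed receptor TPM in PPARγ2 K382Q- and 84.7% to 85.2% in PPARγ2 K382R-overexpressing cells. Receptors with a death domain fell in 4 of 5 expressed cases and rose in 1, and the remaining expressed receptors fell in 4 of 8 cases, decoys and orphans aside, beside 36.9% of all genes lower and 11.1% higher. With median-ratio scaling these counts were the same, beside 20.4% and 19.9% of all genes.

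Tnfrsf1a, the broadly expressed receptor of TNF and lymphotoxin-α, had 138, 140 and 136 TPM in PPARγ2 K382Q- and 213, 212 and 210 TPM in PPARγ2 K382R-overexpressing cells. Every PPARγ2 K382Q library was below every PPARγ2 K382R library by a gap many times the spread within either mutant, and the log2 fold change was -0.62 ± 0.0271 (SE, n = 3 per mutant, limma, adjusted p = 2.83e-06). Tnfrsf1b, the other TNF receptor, which has no death domain and binds TRAF2, had 13.0, 14.7 and 14.998 TPM against 20.3, 20.0 and 19.9 TPM. It was also lower without overlap, at -0.48 ± 0.0641 (SE, limma, adjusted p = 0.000572). The ratio of Tnfrsf1a to Tnfrsf1b was 9.71 ± 0.759 (SD, n = 3) in PPARγ2 K382Q- and 10.6 ± 0.0508 in PPARγ2 K382R-overexpressing cells, and the libraries overlapped.

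Tnfrsf21 encodes death receptor 6, which is best known in neurons and T cells. It showed the largest difference among the expressed members. Its abundance was 2.57, 2.49 and 2.96 TPM in PPARγ2 K382Q- and 11.3, 10.9 and 9.71 TPM in PPARγ2 K382R-overexpressing cells. All 3 PPARγ2 K382Q libraries were far below all 3 PPARγ2 K382R libraries, with a log2 fold change of -1.81 ± 0.0992 (SE, n = 3 per mutant, limma, adjusted p = 6.7e-06) and a ratio of the means of 3.98. Relative to Tnfrsf1a the order was preserved: the ratio of Tnfrsf1a to Tnfrsf21 was 52.0 ± 5.33 (SD, n = 3) and 20.0 ± 1.44, without overlap. The gene lies at chr17:43327446-43400080 in GRCm39, and none of its exon bases are shared with another gene in GENCODE vM39.

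Fas and Tnfrsf10b are the classical receptors for death ligands. Fas, the receptor of FASL, had 6.01, 6.17 and 5.49 TPM against 12.2, 9.94 and 10.5 TPM, and Tnfrsf10b, the only mouse receptor of TRAIL with a death domain, had 21.6, 21.8 and 20.9 TPM against 33.2, 32.9 and 33.9 TPM. Both were lower in every PPARγ2 K382Q library. The log2 fold changes were -0.83 ± 0.094 for Fas and -0.63 ± 0.0422 for Tnfrsf10b (SE, n = 3 per mutant, limma, adjusted p = 0.000252 and 1.86e-05). Fas had a mean depth of only 2.03 to 5.81 reads per base, against 18.9 to 34.1 for Traf3, which had 8.11 to 13.1 TPM, and a fit on gene coverage, chosen after the data had been seen, gave a smaller difference of -0.65. Tnfsf10 and Fasl, the ligands of these receptors, were near or at 0.

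Tnfrsf25 (death receptor 3, the receptor of Tnfsf15) was the only member called higher, at 1.96, 1.29 and 1.84 TPM in PPARγ2 K382Q- and 1.11, 0.764 and 1.16 TPM in PPARγ2 K382R-overexpressing cells. The libraries did not overlap, but the gap between the mutants was narrow. The log2 fold change of 0.54 ± 0.19 (SE) had an adjusted p of 0.0484 by limma, and the call was lost in 8 of 17 alternative analyses. These included leaving out any 1 library other than the second PPARγ2 K382Q library, with adjusted p up to 0.139. Tnfrsf25 also shares 17.1% of its exon bases with Espn on the opposite strand. Espn was higher (limma, adjusted p = 0.00113), with 2.10, 2.89 and 2.24 TPM against 0.263, 0.559 and 0.817 TPM. As for Tnfsf13os, the reads of the shared bases may not have been told apart. Ngfr and Edar, the remaining receptors with a death domain, did not exceed 0.41 and 0.0564 TPM.

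Among receptors without a death domain, Tnfrsf12a was the most abundant member in every library. Its FN14 product is induced by growth factors and injury and is the receptor of TWEAK. Its abundance was 193, 198 and 196 TPM in PPARγ2 K382Q- and 333, 346 and 347 TPM in PPARγ2 K382R-overexpressing cells. The PPARγ2 K382Q libraries lay close to each other and far below the PPARγ2 K382R libraries, with a log2 fold change of -0.80 ± 0.0289 (SE, n = 3 per mutant, limma, adjusted p = 1.17e-06). The ratio of Tnfrsf12a to its ligand Tnfsf12 was 33.1 ± 2.71 (SD, n = 3) in PPARγ2 K382Q- and 29.2 ± 1.83 in PPARγ2 K382R-overexpressing cells, with overlap between libraries. Thus receptor and ligand of this couple were both lower, and their ratio overlapped between the mutants.

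The whole of the Tnfrsf12a exons (chr17:23894419-23896442, minus strand), 100% of their bases, is overlapped by exons of Hcfc1r1 on the opposite strand in GENCODE vM39. Hcfc1r1 was higher in PPARγ2 K382Q-overexpressing cells, at 189, 209 and 207 TPM against 143, 150 and 145 TPM, with a log2 fold change of 0.46 (limma, adjusted p = 0.000112). The direction was thus opposite to that of Tnfrsf12a. As for Tnfrsf25, reads of overlapping exons may not have been told apart. The level of Tnfrsf12a could hold reads of Hcfc1r1 and vice versa.

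Ltbr, the lymphotoxin-β receptor, had 100, 107 and 96.7 TPM in PPARγ2 K382Q- and 128, 129 and 129 TPM in PPARγ2 K382R-overexpressing cells. It was lower without overlap, at -0.34 ± 0.0406 (SE, limma, adjusted p = 0.000306), a smaller difference than that of Tnfrsf1a. The ratio of Ltbr to Tnfrsf1a was 0.734 ± 0.0264 (SD, n = 3) and 0.607 ± 0.00645, without overlap, and that of Tnfrsf12a to Tnfrsf1a was 1.42 ± 0.0201 and 1.62 ± 0.0473, also without overlap. By the deposited values the abundant receptors were therefore lower to different degrees, most for Tnfrsf12a and least for Ltbr. The level of Tnfrsf12a, and with it this order and its ratio, could hold reads of Hcfc1r1.

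Eda2r encodes the X-linked ectodysplasin A2 receptor, a target of p53 that is known to rise in aged tissues. It had 10.2, 9.25 and 9.96 TPM in PPARγ2 K382Q- and 18.3, 21.1 and 21.5 TPM in PPARγ2 K382R-overexpressing cells, without overlap. The log2 fold change was -1.01 ± 0.0778 (SE, n = 3 per mutant, limma, adjusted p = 3.59e-05), just past the fold threshold of 2, which it passed in 9 of 17 alternative analyses while it remained lower and called in all of them. Tnfrsf26 lay just short of the threshold at -0.99 on the log2(TPM + 0.5) scale, with a ratio of mean TPM of 3.36. Eda, the gene of the ligand of EDA2R, which the naming rule does not take, had 2.60, 3.02 and 2.84 TPM against 2.49, 2.59 and 2.96 TPM and was not called (limma, log2 fold change 0.06, adjusted p = 0.695). Eda2r was lower and Eda showed overlapping libraries.

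The other receptors of this kind were close to the threshold of expression and none was called. Tnfrsf11a (RANK, the receptor of RANKL in osteoclast formation) had 0.326 to 0.537 TPM against 0.637 to 0.695 TPM, with a log2 fold change of -0.35 and an adjusted p of 0.164 by limma although the libraries did not overlap. Tnfrsf14 (HVEM), Tnfrsf18 (GITR) and Tnfrsf4 (OX40), the last 2 of which costimulate T cells, had log2 fold changes of -0.13, -0.10 and 0.37 with overlapping libraries between 0.445 and 2.40 TPM. Tnfrsf18 shares 35.9% of its exon bases with Gm16008 on the opposite strand, whose mean of 1.645 TPM was above its own. Reads of these bases may not have been told apart. Below the threshold, Cd40 reached 0.818 TPM in a single PPARγ2 K382Q library and lay at 0.0939 to 0.442 TPM in the other 5. Tnfrsf13c reached 0.735 TPM, Tnfrsf9 0.659 TPM, Tnfrsf19 0.58 TPM, Cd27 0.369 TPM and Tnfrsf8 0.066 TPM. Tnfrsf13b and Tnfrsf17, which are B-cell and plasma cell receptors, were listed at 0 throughout.

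Decoy and orphan receptors bind ligand without signalling or have no assigned ligand. The mouse genes Tnfrsf22, Tnfrsf23 and Tnfrsf26 lie next to each other on chromosome 7, the first 2 encoding decoy receptors of TRAIL. Tnfrsf23 had 10.9, 8.56 and 10.4 TPM against 11.9, 11.0 and 14.6 TPM, and Tnfrsf22 had 5.17, 5.37 and 5.18 TPM against 5.73, 4.94 and 6.32 TPM. Tnfrsf23 did not overlap but was not called at -0.31 (limma, adjusted p = 0.0746), and Tnfrsf22 overlapped at -0.10 (limma, adjusted p = 0.477). The low Tnfrsf26 was lower, with 0.413, 0.269 and 0.388 TPM against 1.16, 1.09 and 1.35 TPM and a log2 fold change of -0.99 ± 0.175 (SE, limma, adjusted p = 0.00236). It passed the filter only through the PPARγ2 K382R libraries, so its direction followed from the filter. Of the transcript stretches of 100 bases of Tnfrsf22 and Tnfrsf23, 6.69% and 8.03% occur in the other gene, so some of their reads could be divided between them, while Tnfrsf26 shares none. Tnfrsf11b (osteoprotegerin), the secreted decoy of RANKL, was listed at 0 in all libraries.

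**Figure D3:**
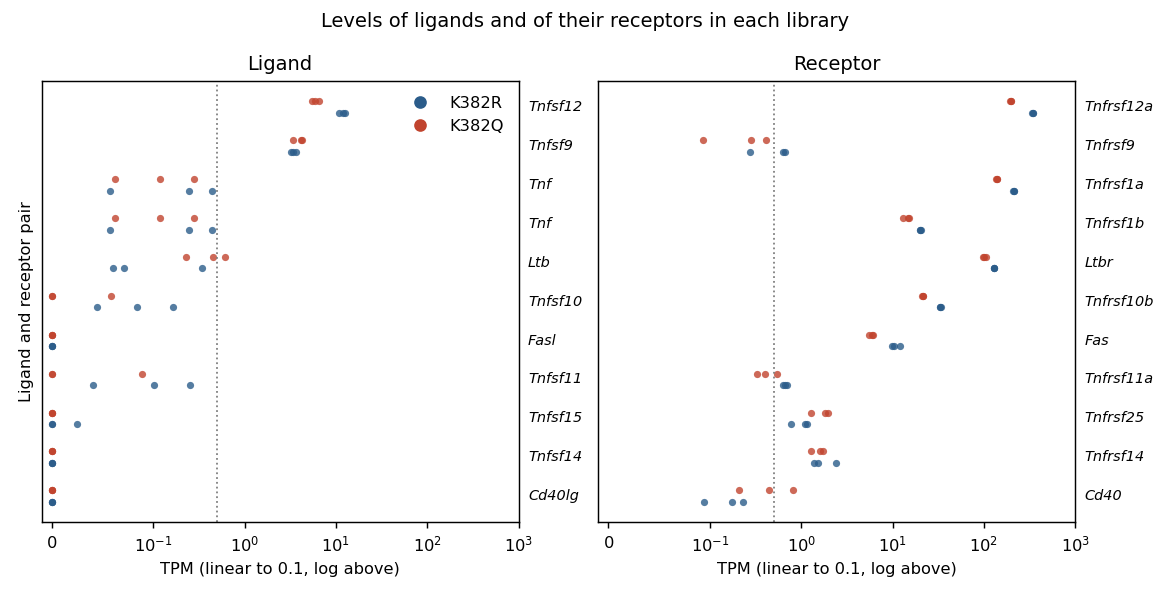
TPM per library of 11 couples of ligand (left) and receptor (right), with a point for each of the 3 libraries per mutant, on an axis that is linear to 0.1 TPM and logarithmic above, and a dotted line at 0.5 TPM. Among the ligands only Tnfsf12 and Tnfsf9 lie above 0.5 TPM in every library, whereas Tnfrsf12a, Tnfrsf1a and Ltbr lie near or above 100 TPM.

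TRAF adaptors connect the receptors to ubiquitin signalling. Of 7 Traf genes 6 were expressed, of which 4 were lower and none was higher, beside 36.9% and 11.1% of all genes. With median-ratio scaling 3 were lower and 1 was higher, beside 20.4% and 19.9% of all genes. The sum of the Traf genes was 190, 193 and 190 TPM in PPARγ2 K382Q- and 221, 226 and 224 TPM in PPARγ2 K382R-overexpressing cells. Traf3, the brake on the alternative NF-κB pathway that marks its kinase NIK for degradation, had 8.38, 8.11 and 9.10 TPM against 13.1, 12.0 and 12.5 TPM. Traf5, a relative of TRAF2 that acts downstream of several costimulatory receptors, had 4.21, 3.99 and 4.77 TPM against 6.92, 6.64 and 6.51 TPM. Both were lower without overlap, at -0.53 ± 0.0703 and -0.58 ± 0.0918 (SE, n = 3 per mutant, limma, adjusted p = 0.000547 and 0.00136).

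Traf4, an adaptor linked to migration and cell polarity, had 59.7, 64.1 and 59.8 TPM against 77.3, 78.2 and 75.6 TPM and was lower at -0.33 (limma, adjusted p = 0.000334). Traf7, the most abundant of the group and a ubiquitin ligase for MAP kinase signalling, had 79.0, 76.2 and 76.1 TPM against 85.9, 88.4 and 90.4 TPM. It was called at -0.19 (limma, adjusted p = 0.00256), but with median-ratio scaling its log2 fold change was -0.04 and the call was lost (limma, adjusted p = 0.341).

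Traf2, which recruits the cIAP ubiquitin ligases to TNF receptors, had 27.2, 29.6 and 28.6 TPM in PPARγ2 K382Q- and 27.9, 29.8 and 29.0 TPM in PPARγ2 K382R-overexpressing cells. The libraries overlapped almost fully, and the 95% confidence interval of the log2 fold change ran from -0.14 to 0.09. Traf6, the ligase of the IL-1, Toll-like and RANK receptors, had 11.3, 10.5 and 11.3 TPM against 10.2, 10.6 and 9.56 TPM and a log2 fold change of 0.12 (limma, adjusted p = 0.181), which became 0.27 and was called higher with median-ratio scaling (limma, adjusted p = 0.0147). The ratio of Traf3 to Traf2 was 0.300 ± 0.023 (SD, n = 3) and 0.434 ± 0.0331, and that of Traf2 to Tnfrsf1a was 0.206 ± 0.00748 and 0.137 ± 0.00508, both without overlap. Traf1, an NF-κB target, stayed under the threshold at 0.0571 to 0.412 TPM.

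The genes that act with these receptors were followed in lists of adaptors, enzymes and targets, which were chosen with earlier results of these data known. Of the 80 genes tested in 7 lists, 50 were lower, 3 were higher and 27 were not called, that is 62.5% lower and 3.75% higher beside 36.9% and 11.1% of all genes. With median-ratio scaling 31 were lower and 9 higher, or 38.8% and 11.2% beside 20.4% and 19.9% of all genes, so the counts moved with the scaling of the libraries.

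**Figure D4:**
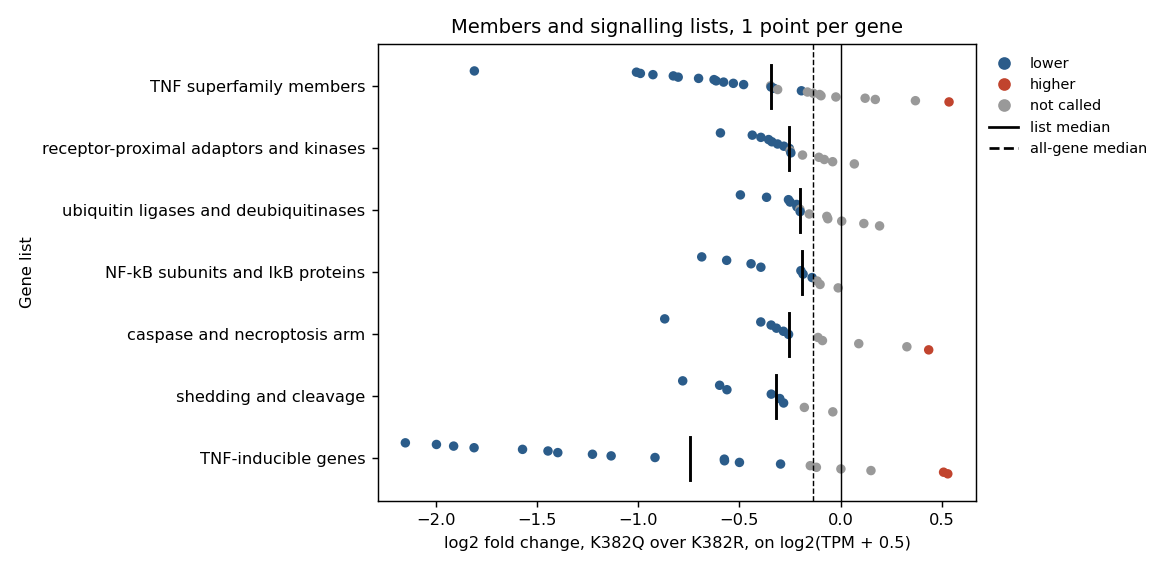
Log2 fold change (K382Q against K382R, on the log2(TPM + 0.5) scale) of each expressed member and each tested gene of 6 signalling lists, with 1 point per gene coloured by call, a line at the median of each list and a dashed line at the median of all genes. The TNF-inducible genes reach from -2.15 to 0.53, while the genes of the other signalling lists lie between -0.87 and 0.44.

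Of the receptor-proximal adaptors and kinases, 9 of 15 were lower and none was higher, with a median log2 fold change of -0.25. The largest differences were those of Ikbke, an IKK-related kinase, at -0.59 and of Ikbkb, the catalytic subunit IKKβ, at -0.44. Of the ubiquitin ligases, LUBAC subunits and deubiquitinases, 7 of 14 were lower, led by the A20-binding protein gene Tnip1 at -0.50 and the deubiquitinase gene Otud7b at -0.37. The shares called lower were 60% and 50%, beside 36.9% of all genes. With median-ratio scaling 3 of the adaptors and kinases were lower and 2 higher, and 2 of the ubiquitin genes were lower and 2 higher. The shares called lower were then 20% and 14.3%, no higher than the 20.4% of all genes.

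Of the NF-κB subunits and IκB proteins 7 of 10 were lower, with Nfkbie (IκBε) at -0.69 and Nfkb1 (p105 and p50) at -0.56 as the largest. Nfkbia, the feedback inhibitor IκBα, was also lower at -0.39. The share called lower was 70%, beside 36.9% of all genes, and with median-ratio scaling it was 30%, beside 20.4%, with none higher. Of the caspase and necroptosis genes 6 of 11 were lower and 1 was higher. Bid, which links caspase-8 to mitochondria, was lower at -0.87, with 20.5, 19.5 and 20.3 TPM against 35.8, 38.6 and 37.0 TPM, whereas Cycs, the gene of cytochrome c, which also serves in the respiratory chain, was higher at 0.44. The share called lower was 54.5%, beside 36.9% of all genes. With median-ratio scaling 5 were lower and 3 higher, or 45.5% and 27.3% beside 20.4% and 19.9% of all genes.

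Genes for the shedding and intramembrane cleavage of ligands and receptors were lower in 6 of 8 cases, and in 6 of 8 with median-ratio scaling as well, that is 75% beside 36.9% and 20.4% of all genes. Rhbdf2, the iRhom2 partner of ADAM17, had 3.12, 3.08 and 2.53 TPM against 5.04, 5.67 and 5.33 TPM and a log2 fold change of -0.78 (limma, adjusted p = 0.000726). Timp3, an inhibitor of ADAM17, was lower at -0.60. The sheddases themselves, Adam17 and Adam10, were lower at -0.30 and -0.28. Thus both the protease and its inhibitor were lower.

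TNF-inducible genes, many of which also respond to interferons or interleukins, were the list with the largest differences. Of 22 listed genes 20 were expressed, of which 14 were lower, 2 were higher and 4 were not called, with a median log2 fold change of -0.75. The share called lower was 70%, beside 36.9% of all genes. With median-ratio scaling 11 were lower and 2 higher, or 55% and 10% beside 20.4% and 19.9% of all genes. A fold change above 2 was reached by 9 genes, all lower. Among all genes 2.61% were lower and 1.27% higher past both thresholds. As the list was chosen with earlier results of these data known, its shares are description only. The 9 genes included the chemokine genes Cxcl10 (-2.15), Cxcl5 (-1.57) and Cxcl1 (-1.13) and the cytokine genes Csf2 (-1.91), Csf1 (-1.81) and Il6 (-1.45). The others were the protease gene Mmp3 (-1.998), the adhesion molecule gene Icam1 (-1.40) and the acute phase gene Saa3 (-1.23).

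Csf1, which encodes the macrophage growth factor M-CSF, had 34.99, 33.4 and 30.8 TPM in PPARγ2 K382Q- and 118, 119 and 114 TPM in PPARγ2 K382R-overexpressing cells. Saa3 had 141, 122 and 125 TPM against 302, 293 and 313 TPM. Neither overlapped. In contrast, Lcn2 (lipocalin 2) and the early response gene Ier3, both known to be raised by TNF, were higher at 0.51 and 0.53 (limma, adjusted p = 0.00048 and 5.15e-05), with 359, 382 and 327 TPM against 253, 264 and 232 TPM for Lcn2. Sod2, Tnfaip6, Tnfaip8 and Nos2 were not called.

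Relt, a receptor of the superfamily that the naming rule does not take, had 9.01, 9.53 and 10.3 TPM against 12.4, 16.1 and 13.6 TPM and was lower without overlap (limma, log2 fold change -0.52, adjusted p = 0.00371). Edaradd, the adaptor of EDAR, was at or near 0 in every library.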

How the data were processed

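Gene abundance was analysed in 6 RNA-seq libraries, 3 per PPARγ2 mutant. The authors prepared the libraries with a NEBNext Ultra kit, aligned reads to GRCm39 with HISAT2 and quantified genes with StringTie. The annotation release is not given in the sources used here. In the deposited TPM every library has an equal sum, so it gives shares of the transcripts. In the deposited FPKM, values are relative to the aligned length of the library. The deposited coverage is the average depth of reads over a gene, not normalized. Raw counts were not analysed here, so no counting intervals could be given, and precision is that of 3 libraries per mutant.

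Gene IDs that occurred more than once in a table were summed. Genes with at least 0.5 TPM in at least 3 of 6 libraries (15426) were tested with limma (version 3.58.1, R 4.3.3). Values entered as log2(TPM + 0.5) and the prior variance followed an intensity trend. This scale understates the change of low genes. P-values were adjusted by the Benjamini-Hochberg method over all genes tested, and a call is an adjusted p under 0.05. The same threshold with a fold change above 2 defined differentially expressed genes (DEGs). An exact permutation test of 3 against 3 libraries cannot go below a p of 0.1 and was not used. The fit was tested on simulated data. Members and lists were chosen with earlier results of these data known. All members are named, with each library given for DEGs, for those of mean abundance of at least 5 TPM and for their partners. Of the lists, the DEGs and the 2 largest changes are named. Other genes of the lists were picked after their values were seen. Exon sharing, transcript starts and upstream sequences were read from GRCm39 and GENCODE vM39, which held 99.0% of the gene IDs, versions ignored. Tables and figures were made in Python 3.11.15 (matplotlib 3.10.9, numpy 2.4.6, pandas 2.3.3).

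Alternatives were pseudocounts of 1 and 0.1, no filter or a floor of 1 TPM, FPKM, median-ratio or quantile scaling, no trend, array weights, a replicate block, a fold of 1.5, leaving out each library and, chosen after the data had been seen, gene coverage. A result for 1 marker gene is not reported here.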

Additional observations from a re-analysis of the deposited data

How the results depend on the processing

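Of the 16 called members, 13 kept their direction and call in every one of up to 17 alternative analyses, and Tnfsf13os, Traf7 and Tnfrsf25 lost the call in at least 1. The 13 included Tnfrsf26, which passed the filter only through the PPARγ2 K382R libraries. Of the 10 members that were not called, Tnfrsf11a, Tnfrsf23 and Traf6 were called in at least 1. Low members such as Tnf, Cd40 and Tnfsf13b were compared only without the filter. Without a filter, 0 of 17 members below the expression threshold and above 0 had an adjusted p under 0.05 by limma, and 2 had an unadjusted p under 0.05.

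Members past a fold of 2 and lower, 2 as reported, numbered 1 with a pseudocount of 1, FPKM, median-ratio scaling, quantile normalization or gene coverage, 4 with a pseudocount of 0.1 and 9 with a fold threshold of 1.5. Leaving out a library gave 1 to 3, with 1 without the second K382Q or the third K382R library. Members higher, 1 as reported, numbered 0 with a pseudocount of 0.1, without a filter or with a floor of 1 TPM, 2 with median-ratio scaling or quantile normalization, and 0 to 1 when a library was left out, with 1 only without the second K382Q library. The median log2 fold change of the members, -0.34 as reported, was -0.42 with a pseudocount of 0.1, -0.48 with a floor of 1 TPM, -0.25 with FPKM, -0.23 with median-ratio scaling, -0.24 with quantile normalization and -0.41 to -0.34 when a library was left out.

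Over all genes, 5698 were lower and 1717 higher as reported, against 3143 and 3069 with median-ratio scaling and 3241 and 2954 with quantile normalization. The share of calls that were lower went from 76.8% to 50.6% with median-ratio scaling, and that of DEGs from 67.3% to 50.9%. DEGs, 403 lower and 196 higher as reported, numbered 227 lower with FPKM, and 1287 lower and 577 higher with a fold threshold of 1.5. Genes of the signalling lists, 50 lower and 3 higher as reported, numbered 31 and 9 with median-ratio scaling and 32 and 9 with quantile normalization, and 7 were higher with FPKM.

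Some members that were not called changed sign. Traf2 was at 0.058 with FPKM, 0.13 with median-ratio scaling, 0.14 with quantile normalization and -0.051 to 0.0082 when a library was left out. Tnfrsf22 was at 0.043 with median-ratio scaling and 0.037 with quantile normalization. Leaving out a library gave -0.40 to 0.046 for Tnfsf13, -0.26 to 0.056 for Tnfrsf14 and -0.21 to 0.011 for Tnfrsf18. The cause was not tested.

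Replicate numbers were not found to pair the libraries, since the deviations of same-numbered libraries from their means correlated at -0.018, 0.051 and 0.022. With the replicate number as a block, 16 members were lower and 1 higher, the addition being Tnfrsf23, and over all genes 5387 were lower and 1600 higher.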
